A study of Mus musculus with 24 samples.

Results

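The genes described here are 9 genes that resting astrocytes express at high levels: Slc1a2, Slc1a3, Glul, Gja1, Gjb6, Aqp4, Aldh1l1, S100b and Sox9. They were taken by symbol from a table of read counts, in which all 9 were found among 54532 genes, and all 9 were among the 19667 genes that had enough reads to be tested. The counts came from the striatum of 24 mice of strain C57BL/6, with 1 library of total RNA per mouse and the tissue of a single hemisphere in each. Q175 mice carry a long CAG tract, knocked into 1 copy of their own Huntingtin gene (Htt), and are used to study Huntington's disease. The product of Tyrobp is a signalling adaptor that microglia use behind several surface receptors. There were 4 genotypes of 6 mice each (3 male, 3 female): wild type (WT), deletion of Tyrobp (TyrobpKO), heterozygous for the Q175 allele with Tyrobp intact (Q175), and heterozygous for the Q175 allele with Tyrobp deleted (Q175_TyrobpKO). The deletion is not restricted to a cell type in the labels, and no age is stated in the sources used here. Each library carries a number of its own in the labels. All Q175 mice and WT replicate 3 share a prefix of that number, the other 5 WT mice have another, and both genotypes with the deletion share one of their own. Q175 against WT was therefore partly a comparison between prefixes, whereas Q175_TyrobpKO against TyrobpKO was made within 1 prefix. Both comparisons of the Tyrobp deletion were wholly between prefixes.

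Astrocytes clear glutamate from the synaptic cleft through the transporters encoded by Slc1a2 (GLT-1, EAAT2) and Slc1a3 (GLAST, EAAT1), and the enzyme encoded by Glul, glutamine synthetase, turns it into glutamine that returns to neurons. Gap junctions built from the connexins encoded by Gja1 (connexin 43) and Gjb6 (connexin 30) join astrocytes into a network, and Aqp4 encodes the water channel of their end-feet on blood vessels. Aldh1l1 encodes a folate enzyme used as a general astrocyte marker, S100b a calcium-binding protein that some oligodendrocytes also make, and Sox9 a transcription factor of the astrocyte lineage. Lower levels of astrocytic glutamate transporter have long been described in Huntington's disease models.

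The libraries held 25.48 to 34.63 M reads assigned to genes. Levels are given as CPM, read counts divided by the library's total in M after its TMM scaling factor, and a genotype is summarised by the mean ± SD of its 6 libraries. The deletion showed in its target. Tyrobp had a level of 7.88 ± 1.15 CPM in WT and 8.68 ± 2.10 CPM in Q175, beside 0.341 ± 0.093 CPM in TyrobpKO and 0.260 ± 0.042 CPM in Q175_TyrobpKO. Htt had 226 ± 8.65 CPM in WT and 164 ± 15.1 CPM in Q175, beside 215 ± 16.2 CPM in TyrobpKO and 170 ± 6.31 CPM in Q175_TyrobpKO. Dissection differed between libraries. The summed level of 6 choroid plexus markers was 25.0 to 130 CPM in the 12 libraries without the Q175 allele and 35.8 to 4097 CPM in the 12 with it, with Q175 replicates 3 and 5 and Q175_TyrobpKO replicates 4 and 6 above 400 CPM. The sum of 6 cortical excitatory neuron markers ran from 14.6 to 873 CPM and was under 50 CPM in WT replicate 4, Q175 replicates 2 and 3 and Q175_TyrobpKO replicate 6. Where leaving out either set of libraries changed whether a fold change printed below for a gene passed the threshold, its value without them is given.

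All 9 genes were well covered in every library, from at least 459 reads for Gjb6 to 109372 reads for Slc1a2. Divided by gene length, the order over the 24 libraries was Glul (376 ± 63.0 CPM per kb), Slc1a2 (210 ± 30.0), S100b (108 ± 17.6), Slc1a3 (55.4 ± 4.60), Aqp4 (17.9 ± 1.88), Gja1 (15.0 ± 1.33), Aldh1l1 (11.1 ± 1.09), Gjb6 (9.60 ± 1.52) and Sox9 (7.74 ± 0.98). The first 4 did not overlap with their neighbours in any library: Glul stayed above 289 CPM per kb, Slc1a2 between 157 and 248, S100b between 79.3 and 146, and Slc1a3 between 47.9 and 65.3. Aqp4 and Gja1 overlapped (14.3 to 20.8 against 12.5 to 17.9 CPM per kb), as did Aldh1l1, Gjb6 and Sox9, so the order within the lower 5 does not exceed the spread between libraries at each step.

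Slc1a2 and Glul were lower with the Q175 allele, and S100b was higher. The sequences of 250 bases before the start of these 3 genes in RefSeq (build GRCm38.p6, plus strand) are shown because Slc1a2 and Glul moved together and S100b the other way. The Slc1a2 window is chr2:102706188-102706437 and lies 47.8 kb inside the span the deposited table gives for the gene, with 29 of its bases in an exon of that gene in GENCODE M21. The Glul window is chr1:153899679-153899928. It overlaps exons of Teddm2, on the other strand, and of Mir8114, on the same strand. The S100b window is chr10:76253586-76253835, outside any annotated gene. Capitals mark matches, on either strand, to the TATA box (TATAAA), the GC box (GGGCGG), a SOX motif (ACAATGG) and the CCAAT box (CCAAT).
Slc1a2: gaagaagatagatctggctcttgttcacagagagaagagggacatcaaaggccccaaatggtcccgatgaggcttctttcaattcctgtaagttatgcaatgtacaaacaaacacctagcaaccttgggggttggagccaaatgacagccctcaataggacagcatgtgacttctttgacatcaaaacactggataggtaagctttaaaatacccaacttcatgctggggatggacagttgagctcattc
Glul: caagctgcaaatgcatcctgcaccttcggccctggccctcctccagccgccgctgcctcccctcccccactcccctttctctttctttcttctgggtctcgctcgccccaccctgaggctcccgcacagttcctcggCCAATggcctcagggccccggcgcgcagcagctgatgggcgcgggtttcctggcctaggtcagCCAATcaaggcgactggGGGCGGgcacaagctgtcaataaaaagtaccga
S100b: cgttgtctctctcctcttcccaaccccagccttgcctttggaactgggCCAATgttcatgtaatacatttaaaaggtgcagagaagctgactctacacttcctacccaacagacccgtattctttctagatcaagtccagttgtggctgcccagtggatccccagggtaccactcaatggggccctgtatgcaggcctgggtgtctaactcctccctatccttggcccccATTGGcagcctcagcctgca
These letters matched nowhere in the Slc1a2 window. The Glul window held CCAAT boxes at 113 to 109 and 50 to 46 bases before the start and a GC box at 33 to 28. The S100b window held CCAAT boxes at 202 to 198 and 20 to 16 bases before the start. Of the 32851 windows of this length in the promoter table, 33.85% held a CCAAT box, 32.74% a GC box, 12.37% a TATA box and 3.02% the SOX motif. GC content was 44.8% for Slc1a2, 64.8% for Glul and 53.6% for S100b, beside a median of 52.4% over all windows. Windows were found for 7 of the 9 genes, not for Aqp4 and Sox9.

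The effect of the Q175 allele was measured in 2 comparisons that share no library: Q175 against WT, with Tyrobp intact, and Q175_TyrobpKO against TyrobpKO, with Tyrobp deleted. A gene was called at an adjusted p under 0.05 in edgeR's quasi-likelihood test, adjusted over all 19667 genes by Benjamini-Hochberg. With Tyrobp intact 3 of the 9 genes were called, Slc1a2 and Glul lower and S100b higher, beside 9.63% of all genes tested (5.47% lower and 4.15% higher). With Tyrobp deleted 3 of the 9 were called, Slc1a2, Glul and Slc1a3, all lower, beside 5.86% of all genes (3.08% lower and 2.78% higher). The libraries of the compared genotypes did not overlap for Slc1a2 and Glul in either comparison, that is for 2 of 9 genes, beside 4.08% and 4.49% of all genes. The median log2 fold change of the 9 genes was -0.08 with Tyrobp intact and -0.20 with Tyrobp deleted, where the median of all genes was 0.01 and 0.00. In bulk tissue, fewer cells of a type and less RNA per cell cannot be told apart, which applies to each result here.

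**Figure D1:**
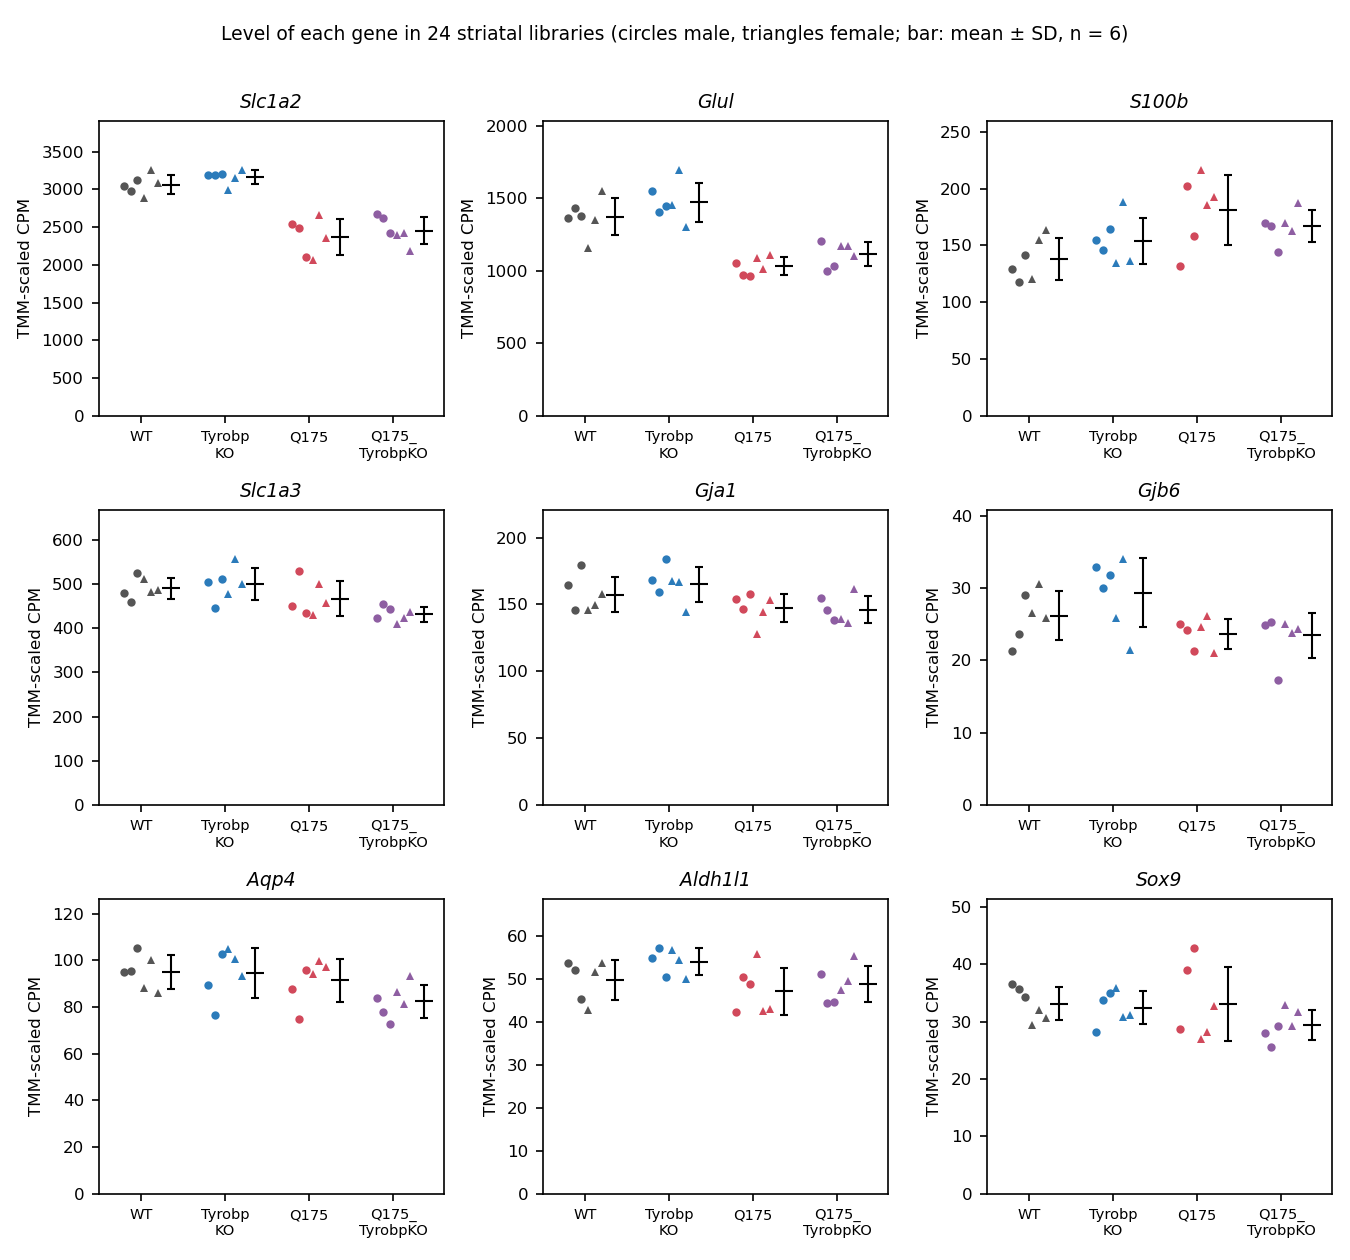
Level of each of the 9 genes in TMM-scaled CPM (vertical axis, starting at 0) in the 24 libraries, by genotype; circles are males, triangles females, and the bar beside each group is the mean ± SD over 6 libraries. The 12 libraries with the Q175 allele lie below the 12 without it for Slc1a2 (at most 2675 against at least 2890 CPM). For Glul they do so within each Tyrobp genotype. S100b lies higher in Q175 than in WT on average, and its groups and those of the remaining genes overlap.

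Slc1a2 (ENSMUSG00000005089, chromosome 2, 102658659 to 102790784) carries most glutamate uptake in the adult forebrain. In WT its level was 3042, 2984, 3127, 2890, 3257 and 3079 CPM in replicates 1 to 6, and in TyrobpKO 3191, 3192, 3207, 2993, 3148 and 3251 CPM. In Q175 it was 2539, 2482, 2106, 2068, 2666 and 2360 CPM, and in Q175_TyrobpKO 2675, 2616, 2418, 2399, 2426 and 2177 CPM. Every library with the allele was below every library without it, in both sexes. The spread was also wider with the allele, with a coefficient of variation of 10.2% in Q175 and 7.23% in Q175_TyrobpKO beside 4.09% in WT and 2.84% in TyrobpKO. The log2 fold change was -0.37 ± 0.06 (SE, adjusted p = 0.000162, edgeR) in Q175 against WT, where the level fell by 22.6%, and -0.37 ± 0.06 (adjusted p = 0.000319, edgeR) in Q175_TyrobpKO against TyrobpKO, where it fell by 22.5%. The exact permutation test of the means gave its smallest possible p, 0.002165, in both (2-sided, 924 splits; 0.0195 after adjustment over 36 tests).

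Glul (ENSMUSG00000026473, chromosome 1, 153899944 to 153909723) showed a decrease of about the same size. Its level was 1361, 1434, 1380, 1160, 1347 and 1554 CPM in WT and 1548, 1405, 1446, 1450, 1695 and 1301 CPM in TyrobpKO. It was 1056, 972, 962, 1091, 1012 and 1108 CPM in Q175 and 1203, 1001, 1036, 1171, 1171 and 1104 CPM in Q175_TyrobpKO. All 6 libraries with the allele were below all 6 without it within each Tyrobp genotype, although WT replicate 4, the lowest control, was under 3 Q175_TyrobpKO libraries. The log2 fold change was -0.41 ± 0.07 (adjusted p = 0.000177, edgeR) with Tyrobp intact and -0.40 ± 0.07 (adjusted p = 0.000391, edgeR) with Tyrobp deleted, decreases of 24.8% and 24.4%, and the exact permutation p was again the smallest possible in both.

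Relative to each other, Slc1a2 and Glul differed between genotypes by less than the spread between libraries. The ratio of Glul to Slc1a2 reads within a library was 0.448 ± 0.039 in WT beside 0.440 ± 0.056 in Q175, and 0.467 ± 0.047 in TyrobpKO beside 0.456 ± 0.046 in Q175_TyrobpKO (n = 6 each). Within genotypes, however, the levels of the 2 genes did not vary together: after removal of genotype and sex means, Pearson's r over the 24 libraries was 0.0641 and Spearman's rho 0.0617 (permutation p = 0.765 and 0.773, 0.773 for both after adjustment over 6 tests), and r was 0.0491 without the 2 libraries farthest from the median. The calls of both genes with Tyrobp intact were lost in females alone (adjusted p = 0.0823 for Slc1a2 and 0.193 for Glul, edgeR, 3 libraries a group), and with Tyrobp deleted that of Slc1a2 was lost in males (0.114) and that of Glul in females (0.122), all with the same direction.

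Slc1a3 (ENSMUSG00000005360, chromosome 15, 8634124 to 8710764), the transporter that predominates in radial glia and cerebellum, moved less. With Tyrobp intact its level was 480, 459, 525, 512, 483 and 487 CPM in the WT libraries and 450, 529, 434, 431, 501 and 457 CPM in Q175. With Tyrobp deleted it was 505, 447, 512, 479, 558 and 500 CPM without the Q175 allele and 423, 455, 443, 409, 424 and 438 CPM with it. The groups overlapped in both comparisons, by 1 library of TyrobpKO (replicate 2) when Tyrobp was deleted. With Tyrobp intact the log2 fold change was -0.07 ± 0.06 (95% interval -0.19 to 0.05, adjusted p = 0.507, edgeR). With Tyrobp deleted Slc1a3 fell by 13.6%, with a log2 fold change of -0.21 ± 0.06 (adjusted p = 0.0273, edgeR) and an exact permutation p of 0.00433 (0.0312 adjusted). That call was lost without any 1 of TyrobpKO replicates 1, 3, 5 and 6 and Q175_TyrobpKO replicates 1, 4 and 5 (adjusted p for Slc1a3 from 0.0518 to 0.117, edgeR). It was also lost without the libraries of high choroid plexus markers (-0.20 and 0.130) and in either sex alone (-0.15 and 0.564 in males, -0.27 and 0.140 in females).

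The relative level of the transporters was described, with no test, by the ratio of their reads. Slc1a2 had 6.25 ± 0.39 reads per Slc1a3 read in WT and 6.35 ± 0.48 in TyrobpKO, and 5.08 ± 0.37 in Q175 and 5.68 ± 0.45 in Q175_TyrobpKO. Glul had 2.81 ± 0.34, 2.95 ± 0.20, 2.23 ± 0.26 and 2.59 ± 0.28 reads per Slc1a3 read in the same order, and S100b 0.281 ± 0.039, 0.307 ± 0.026, 0.389 ± 0.069 and 0.387 ± 0.037. A ratio within a library does not depend on the library scaling, and a change in it shows unequal change of its 2 genes only. Residual levels of Slc1a2 and Slc1a3 over the 24 libraries had r = 0.399 and rho = 0.392 (permutation p = 0.0531 and 0.0588, adjusted 0.177 for both), with r = 0.242 without the 2 libraries farthest from the median.

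**Figure D2:**
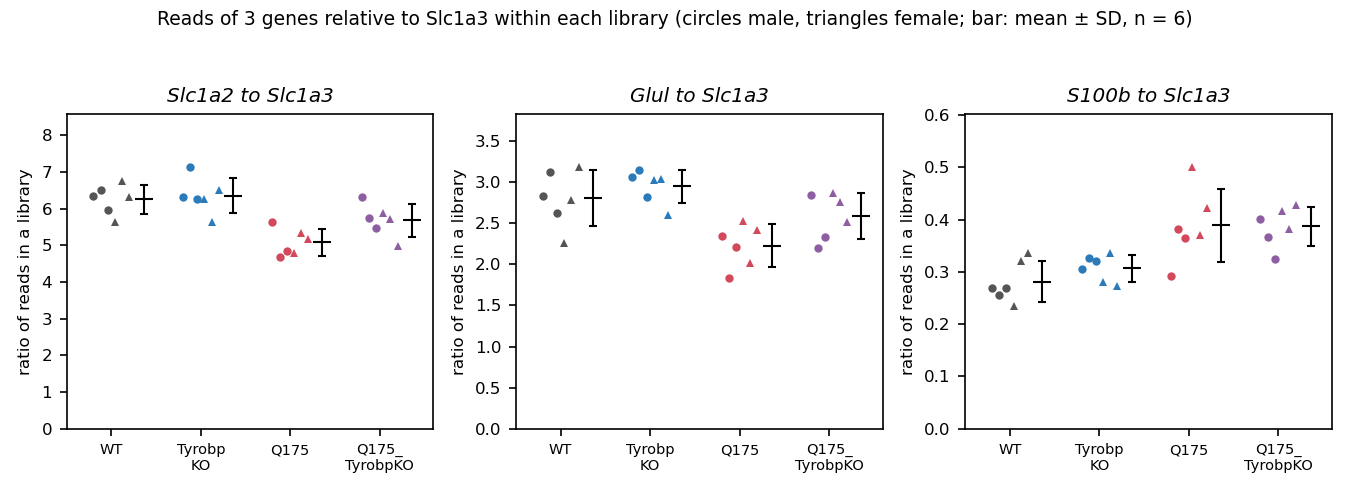
Reads of Slc1a2, Glul and S100b divided by reads of Slc1a3 in the same library (vertical axis, a plain ratio starting at 0), by genotype; circles are males, triangles females, bars mean ± SD over 6 libraries. The first 2 ratios were lower on average in Q175 than in WT (5.08 against 6.25 and 2.23 against 2.81) and the ratio of S100b was higher (0.389 against 0.281).

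S100b (ENSMUSG00000033208, chromosome 10, 76253853 to 76261159) went the other way. With Tyrobp intact its level was 129, 118, 142, 120, 155 and 164 CPM in the WT libraries and 132, 202, 158, 216, 186 and 193 CPM in Q175. With Tyrobp deleted it was 154, 146, 164, 134, 188 and 136 CPM without the Q175 allele and 170, 167, 144, 170, 162 and 187 CPM with it. In Q175, 4 libraries were above every WT library, and replicates 1 and 3 lay within the WT range. The level was 31.1% higher in Q175 than in WT, a log2 fold change of 0.39 ± 0.10 (adjusted p = 0.0123, edgeR), while the exact permutation p was 0.0217 and did not pass after adjustment (0.111). In Q175_TyrobpKO against TyrobpKO the log2 fold change was 0.12 ± 0.10 (95% interval -0.09 to 0.32, adjusted p = 0.605, edgeR) and the groups overlapped. The call was lost without the 4 libraries of low cortical markers (0.30 on the log2 scale, adjusted p = 0.132) and in either sex alone (0.192 in males, 0.162 in females).

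S100b overlaps Dip2a on the opposite strand, and the sources used here do not say whether the counting used strand, so reads of the 2 genes may not be fully separated. Dip2a had 81.2% as many reads as S100b over all libraries. Its log2 fold change was 0.02 ± 0.08 (adjusted p = 0.938, edgeR) in Q175 against WT. S100b is also made by oligodendrocytes, whose 10 markers summed to 8985 to 14574 CPM in WT beside 8312 to 12306 in Q175, and 9952 to 14706 CPM in TyrobpKO beside 8107 to 10911 in Q175_TyrobpKO. None of the 10 was called in Q175 against WT, where 6 had a lower and 4 a higher mean level and the median log2 fold change was -0.08; the part of oligodendrocytes in the level of S100b was not tested.

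Gja1 (ENSMUSG00000050953, chromosome 10, 56377330 to 56402513), the main astrocytic connexin, had 157 ± 13.2 CPM in WT beside 147 ± 10.8 in Q175, and 165 ± 13.1 CPM in TyrobpKO beside 146 ± 10.1 in Q175_TyrobpKO. It ranged from 145 to 180 CPM in WT and from 128 to 158 in Q175, and from 144 to 184 in TyrobpKO and 136 to 161 in Q175_TyrobpKO, so the groups overlapped in both comparisons. Its log2 fold change was -0.09 ± 0.06 (adjusted p = 0.391, edgeR) with Tyrobp intact and -0.18 ± 0.06 (adjusted p = 0.0897, edgeR) with Tyrobp deleted. The second value passed at -0.22 (adjusted p = 0.0346) without Q175_TyrobpKO replicate 6, at -0.22 (0.0382) without the libraries of low cortical markers and at -0.20 (0.0404) with the cortical marker level as a covariate.

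Gjb6 (ENSMUSG00000040055, chromosome 14, 57123303 to 57133611), the connexin of mature astrocytes, was at 26.2 ± 3.42, 29.4 ± 4.82, 23.7 ± 2.08 and 23.5 ± 3.11 CPM in WT, TyrobpKO, Q175 and Q175_TyrobpKO. The highest library was TyrobpKO replicate 5 at 34.0 CPM and the lowest Q175_TyrobpKO replicate 3 at 17.2 CPM. The log2 fold change was -0.14 ± 0.11 (adjusted p = 0.475, edgeR) with Tyrobp intact and -0.33 ± 0.11 (adjusted p = 0.0730, edgeR) with Tyrobp deleted, and the second was called by DESeq2 (adjusted p = 0.0443) and without TyrobpKO replicate 6 (-0.40, 0.0160). The ratio of Gja1 to Gjb6 reads ranged on average from 5.71 ± 0.75 in TyrobpKO to 6.32 ± 0.94 in Q175_TyrobpKO, and their residual levels had r = 0.314 and rho = 0.242 over 24 libraries (permutation p = 0.134 and 0.252, adjusted 0.267 and 0.379; r = 0.37 without 2 libraries).

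The remaining 3 genes were not called in either comparison. Aqp4 (ENSMUSG00000024411) had 95.1 ± 7.24 CPM in WT beside 91.6 ± 9.18 in Q175, and 94.7 ± 10.6 CPM in TyrobpKO beside 82.6 ± 7.11 in Q175_TyrobpKO, with log2 fold changes of -0.06 ± 0.07 (adjusted p = 0.707, edgeR) and -0.20 ± 0.07 (adjusted p = 0.118, edgeR; -0.24 and 0.0446 without TyrobpKO replicate 2, its lowest library in that genotype at 76.6 CPM). Aldh1l1 (ENSMUSG00000030088, chromosome 6, 90486427 to 90600203) was at 49.9 ± 4.65, 54.0 ± 3.09, 47.1 ± 5.54 and 48.8 ± 4.21 CPM in WT, TyrobpKO, Q175 and Q175_TyrobpKO, with log2 fold changes of -0.08 ± 0.07 (adjusted p = 0.573, edgeR) and -0.15 ± 0.07 (adjusted p = 0.288, edgeR). Sox9 (ENSMUSG00000000567, chromosome 11, 112782224 to 112787760) was at 33.1 ± 2.88, 32.4 ± 2.89, 33.1 ± 6.49 and 29.5 ± 2.60 CPM in the same order, with 0.00 ± 0.09 (adjusted p = 0.996, edgeR) and -0.14 ± 0.09 (adjusted p = 0.481, edgeR). The 95% intervals for Q175 against WT were -0.21 to 0.09 for Aqp4, -0.23 to 0.07 for Aldh1l1 and -0.19 to 0.19 for Sox9, so decreases of the size found for Slc1a2 lie outside them. Sox9 had a coefficient of variation of 19.6% in Q175, where replicates 2 and 3 were at 39.0 and 42.9 CPM and the other 4 between 27.0 and 32.7 CPM; these are also the replicates with the lowest cortical marker sums in that genotype, and the part of dissection in this was not tested.

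**Figure D3:**
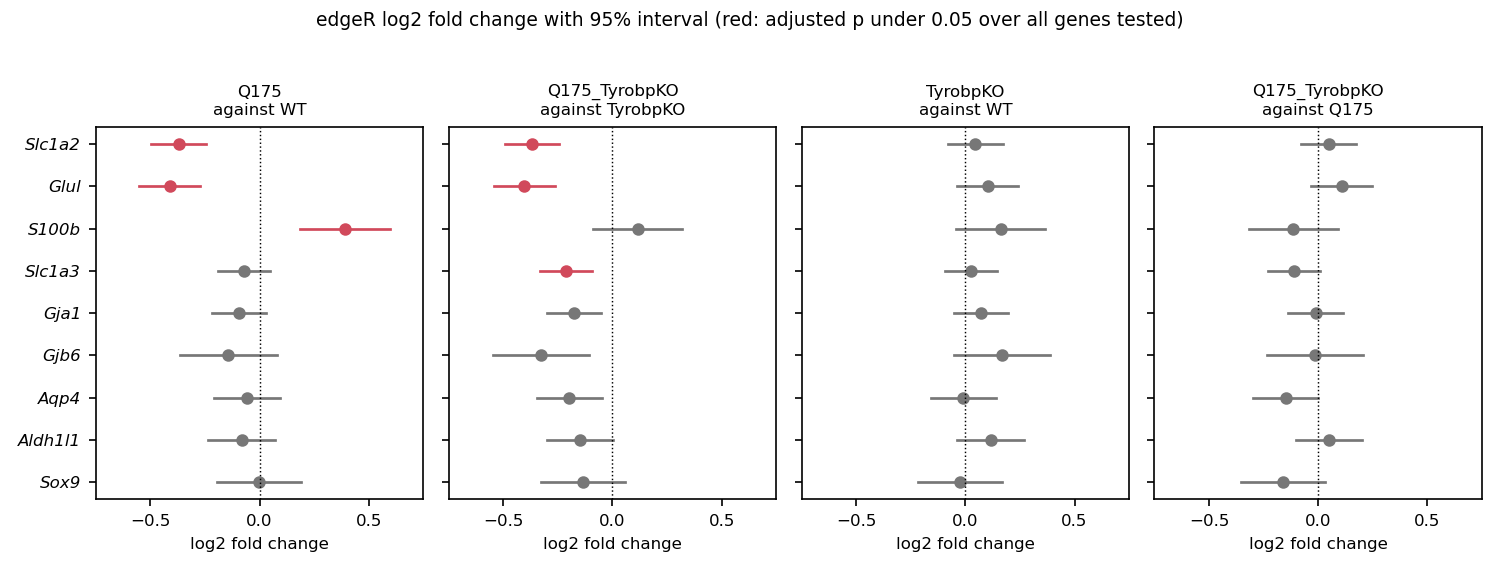
Log2 fold change (horizontal axis) of the 9 genes in the 4 comparisons between genotypes, with 95% intervals from edgeR; red marks an adjusted p under 0.05 over all 19667 genes. Slc1a2 and Glul lie near -0.4 in both comparisons of the Q175 allele, S100b lies at 0.39 in the first and 0.12 in the second, and every interval of the 2 comparisons of the Tyrobp deletion includes 0.

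Averaging over the Tyrobp genotypes, 12 libraries with the Q175 allele were compared with 12 without it. This comparison uses the same libraries as the 2 above and is no further evidence beside them, but it estimates small differences more closely. Of the 9 genes 6 were called, 5 lower and 1 higher, beside 18% of all genes tested (9.17% lower and 8.85% higher). Slc1a2 (-0.37 ± 0.04, adjusted p = 4.78e-07) and Glul (-0.41 ± 0.05, adjusted p = 5.80e-07) fell most, followed in edgeR's test by Gjb6 (-0.23 ± 0.08, adjusted p = 0.0314), Slc1a3 (-0.14 ± 0.04, adjusted p = 0.0154) and Gja1 (-0.13 ± 0.04, adjusted p = 0.0286), and S100b rose (0.25 ± 0.07, adjusted p = 0.0127). Not called were Aqp4 (-0.13 ± 0.05, adjusted p = 0.0884, edgeR), Aldh1l1 (-0.11 ± 0.05, adjusted p = 0.138, edgeR) and Sox9 (-0.07 ± 0.07, adjusted p = 0.537, edgeR). The median of the 9 was -0.13, where the median of all genes was 0.00. Only Slc1a2 separated the 12 libraries from the other 12 without overlap, beside 1.14% of all genes.

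Among the smaller changes, the calls of Gja1 and Gjb6 depended on single libraries, while those of Slc1a3 and S100b were made without any 1 of the 24 (adjusted p up to 0.0474 and 0.0264). Gja1 was no longer called without any 1 of 8 libraries (WT replicates 1, 3 and 6, TyrobpKO replicates 3, 4 and 5, Q175 replicate 4 and Q175_TyrobpKO replicate 3; adjusted p up to 0.0696). Gjb6 was no longer called without any 1 of 9 (WT replicates 3 and 5, TyrobpKO replicates 1, 2, 3 and 5, Q175 replicates 3 and 6 and Q175_TyrobpKO replicate 3; up to 0.0681), nor without the libraries of high choroid plexus markers (0.0697), without those of low cortical markers (0.116) or with the cortical marker covariate (0.0628). Without the libraries of high choroid plexus markers Slc1a3 (-0.14, adjusted p = 0.0637, edgeR) and S100b (0.26, adjusted p = 0.0515, edgeR) also missed the threshold. Those 4 libraries all carried the Q175 allele, and Gjb6 was at -0.26 without them. These fold changes were near those from all 24 libraries. Without the libraries of low cortical markers, where Gjb6 was at -0.22, S100b missed the threshold (0.20, adjusted p = 0.0855, edgeR). Aldh1l1 (-0.18, adjusted p = 0.0231, edgeR) and Sox9 (-0.19, adjusted p = 0.0285, edgeR) passed it there. In either sex alone Slc1a3 (0.416 in males, 0.0913 in females) and S100b (0.252 and 0.0724) were not called. Slc1a2 and Glul were called under each of these settings, with -0.36 and -0.39 without the libraries of high choroid plexus markers, -0.35 and -0.41 without those of low cortical markers, and -0.34 and -0.37 with the covariate.

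Markers of other cells moved in the same comparisons. Of all genes tested, 9.63% were called in Q175 against WT, 5.86% in Q175_TyrobpKO against TyrobpKO and 18% in the 12 libraries with the allele. Choroid plexus markers were higher. In Q175 against WT 2 of 6 were called (median log2 fold change 2.84). In the 12 libraries with the allele 5 of 6 were (2.31). None of the 6 was called without either set of libraries. Of 6 ependymal markers 1 was called higher in Q175 against WT. Striatal projection neuron markers were lower, 8 of 10 being called lower in Q175 against WT (median log2 fold change -0.72) and 4 of 10 in Q175_TyrobpKO against TyrobpKO (-0.47), where 1 of 10 was called without the libraries of high choroid plexus markers and 2 of 10 without those of low cortical markers. Of 10 oligodendrocyte markers 4 were called lower in the 12 libraries with the allele, among them Mobp (-0.38), Mal (-0.35) and Cldn11 (-0.32; adjusted p = 0.0777, edgeR, without the libraries of high choroid plexus markers). Over the 10 the median was -0.19, and 6 had a lower and 4 a higher mean level. Of 8 endothelial and mural markers 5 were called lower, with a median of -0.16, and 3 of 8 without either set of libraries. Microglial markers (8) and oligodendrocyte precursor markers (6) had none called, which for so few genes is near the shares of all genes. The part of these shifts in the levels of the astrocyte genes was not tested. Among 8 genes of reactive astrocytes, of which Lcn2 had too few reads, Gfap and Serpina3n rose in Q175 against WT (0.63 and 1.01 on the log2 scale, adjusted p = 0.0425 and 0.00104, edgeR), and none of the 7 was called in Q175_TyrobpKO against TyrobpKO. Gfap was not called without the libraries of high choroid plexus markers (0.54, adjusted p = 0.204, edgeR) or without those of low cortical markers (0.50, adjusted p = 0.224, edgeR).

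Deletion of Tyrobp was compared with its presence in the same way. Every library with the deletion had a prefix that no library with Tyrobp intact had. Deletion and prefix therefore cannot be told apart in either comparison. None of the 9 genes was called in TyrobpKO against WT, beside 0.117% of all genes, or in Q175_TyrobpKO against Q175, beside 0.158%; none of the 9 had an unadjusted p under 0.05 either, beside 6.45% and 6.04% of all genes, DESeq2 and limma-voom also called 0 of the 9, and none separated the genotypes without overlap, beside 0.356% and 0.463% of all genes. For 9 genes a count of 0 is near each of these shares. The log2 fold changes of Slc1a2 were 0.05 ± 0.06 without the Q175 allele (95% interval -0.08 to 0.17) and 0.05 ± 0.06 with it (-0.08 to 0.17), and those of Glul 0.10 ± 0.07 (-0.04 to 0.24) and 0.11 ± 0.07 (-0.03 to 0.25). A reversal of the Q175 effect on either gene, of 0.37 or 0.41, lies outside these intervals. For S100b the values were 0.16 ± 0.10 and -0.11 ± 0.10, and the smallest adjusted p of any of the 9 was 0.760 and 0.828 in the 2 comparisons. Slc1a3 was at 0.03 ± 0.06 and -0.11 ± 0.06 in the same order, and Gja1 at 0.07 ± 0.06 and -0.01 ± 0.06. Gjb6 was at 0.17 ± 0.11 and -0.01 ± 0.11, and Aldh1l1 at 0.12 ± 0.07 and 0.05 ± 0.07. Sox9 was at -0.03 ± 0.09 and -0.16 ± 0.09. Aqp4 was at -0.01 ± 0.07 and -0.15 ± 0.07, the second with a 95% interval of -0.30 to 0.0004.

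The difference between the Q175 effects in the 2 Tyrobp genotypes was tested as an interaction, which was called for 0 of the 9 genes and for 0% of all genes (707 genes, 3.59%, and none of the 9, had an unadjusted p under 0.05, and DESeq2 called 2 genes). The interaction of Slc1a2 was 0.00 ± 0.09 on the log2 scale (95% interval -0.18 to 0.18) and that of Glul 0.01 ± 0.10 (-0.19 to 0.20). It was -0.28 ± 0.14 for S100b (-0.57 to 0.01) and -0.14 ± 0.08 for Slc1a3 (-0.31 to 0.03), each with an adjusted p of 0.999. S100b was called in 1 of the 2 Tyrobp genotypes and Slc1a3 in the other, but neither difference between genotypes passed the test. The interaction also set a Q175 effect measured within 1 prefix beside one measured partly between prefixes.

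Sex moved none of the 9 genes past the threshold, beside 0.0814% of all genes (4.05% had an unadjusted p under 0.05), with log2 fold changes from -0.09 ± 0.07 for Sox9 to 0.13 ± 0.07 for S100b in females against males. The Q175 effect did not differ by sex beyond the error for any of the 9, nor was any other gene called (0% of all genes; 593 genes, 3.02%, had an unadjusted p under 0.05). For Slc1a2 the difference was -0.06 ± 0.09 and for Glul 0.11 ± 0.10.

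Other astrocyte genes are given here as 6 lists of related genes. The lists held 50 genes, 49 of which were tested, and 17 of these were called lower and 0 called higher in the 12 libraries with the Q175 allele, beside 9.17% and 8.85% of all genes. By direction alone 35 had a lower and 14 a higher level, and their median log2 fold change was -0.08. With Tyrobp intact 7 of 49 were called lower, beside 5.47% of all genes, and with Tyrobp deleted 7 of 49, beside 3.08%; 0 were called higher in either. With Tyrobp deleted 2 of 49 were called without the libraries of high choroid plexus markers, 11 with the cortical marker covariate, 12 when the fit held those 2 genotypes alone, and 4 without any 1 of TyrobpKO replicates 3 and 5 and Q175_TyrobpKO replicate 3. Over the 12 libraries with the allele 13 of 49 were called without the libraries of high choroid plexus markers and 17 without those of low cortical markers. None was called for the Tyrobp deletion or the interaction.

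Of 8 other genes of ion, GABA and bicarbonate handling 4 were called lower. They included Atp1b2, the beta subunit of a sodium pump in glia (-0.26 ± 0.04, adjusted p = 5.61e-05, edgeR), the bicarbonate cotransporter Slc4a4 (-0.31 ± 0.06, adjusted p = 0.000960, edgeR) and the potassium channel Kcnj10 (-0.17 ± 0.06, adjusted p = 0.0310, edgeR; 0.0686 with the cortical marker covariate). Among 7 other genes of glutamate and amino acid handling only the cystine-glutamate exchanger Slc7a11 was called (-0.26 ± 0.07, adjusted p = 0.00634, edgeR), and their median was -0.06.

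Among the 12 other astrocyte identity genes 7 were called lower, with Cbs, an enzyme of cysteine synthesis (-0.30 ± 0.06), Aldoc, the brain aldolase (-0.22 ± 0.05), the neurotensin receptor Ntsr2 (-0.21 ± 0.05) and Ppp1r3c, a glycogen-targeting subunit (-0.26 ± 0.07), at the smallest p. Of 8 lineage transcription factors 3 were called lower, Id4 (-0.53 ± 0.08), Lhx2 (-0.26 ± 0.06) and Rfx4 (-0.19 ± 0.06), the last not without the libraries of high choroid plexus markers (adjusted p = 0.0896, edgeR) or of low cortical markers (0.0915). Id4 was at 239 ± 43.6 CPM in WT and 158 ± 22.4 CPM in Q175. Of 6 other connexins 1 was called lower, Gjc3 (-0.32 ± 0.07), which oligodendrocytes make, and of 8 genes of the end-foot 1, Gpr37l1 (-0.14 ± 0.04; adjusted p = 0.117, edgeR, without the libraries of high choroid plexus markers). The end-foot list had a median of 0.00.

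**Figure D4:**
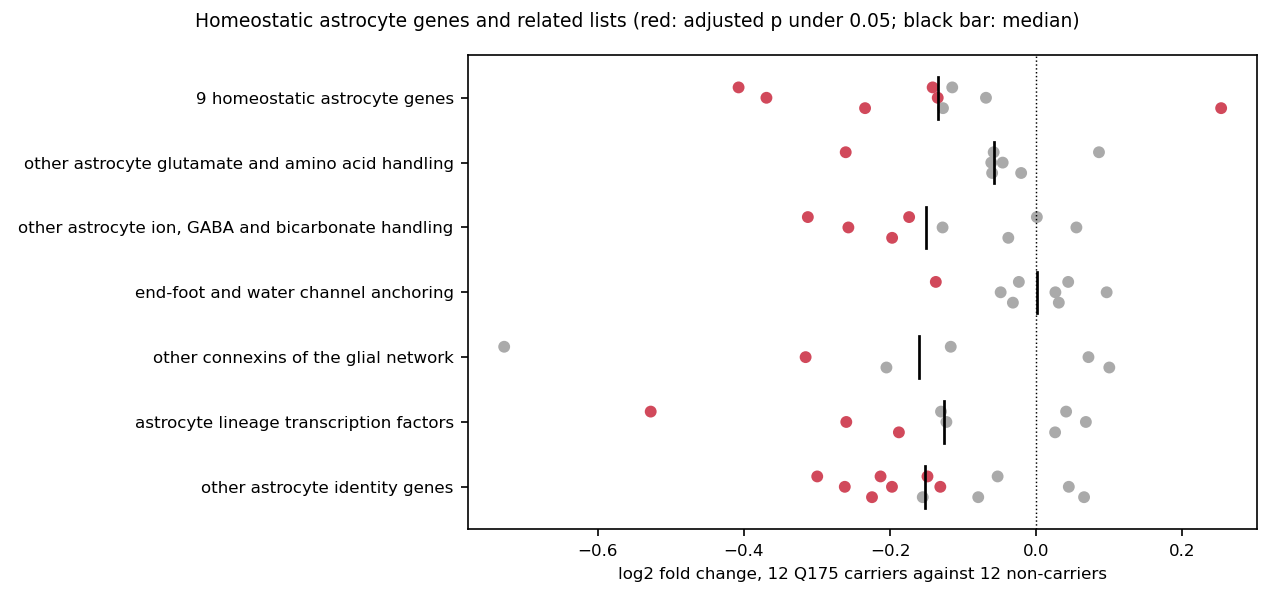
Log2 fold change (horizontal axis) of the 12 libraries with the Q175 allele against the 12 without it, for the 9 genes and 6 related lists (rows); each point is a gene, red marks an adjusted p under 0.05 over all genes in edgeR's test and the black bar is the median of the list. All 17 called genes of the related lists lie below 0, while among the 9 genes S100b lies at 0.25.

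The genes whose profile over the 24 libraries was most like the mean profile of the 9 were found by the root mean square difference of standardised log2 CPM, which had a median of 1.127 over all genes tested. Among the 5 closest were Atp1b2 (0.560), Il33, an alarmin cytokine made by astrocytes and oligodendrocytes (0.566), Taf7, a subunit of general transcription factor IID (0.582), and Map6d1 (0.605). Among the 9 themselves, which contribute to that mean, Glul (0.623), Gja1 (0.649) and Gjb6 (0.683) were closest, and Sox9 (0.938) and S100b (1.14) were farthest, S100b being no closer than the median gene.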

How the data were processed

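RNA of 24 mouse striata was sequenced by a commercial provider, per the labels' protocols. The authors deposited a table of unnormalized counts, in whole reads for each gene, beside a gene length that the deposited table gives as another value and that was used here only for CPM per kb. The submitters' processing notes name STAR, featureCounts and DESeq2 without versions, and the human build GRCh38, whereas 8 of the 9 genes have the start and end of the mouse build GRCm38 (GENCODE M21); strand use is not given in the sources used here.

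All 24 libraries entered 1 fit in edgeR 4.0.16 (R 4.3.3; filterByExpr on genotype, TMM, glmQLFit with robust = TRUE, glmQLFTest) with 1 coefficient for each of the 4 genotypes plus sex; the biological coefficient of variation was 16.2%. The threshold was an adjusted p of 0.05 (Benjamini-Hochberg, 19667 genes tested). Intervals are 95% intervals of that fit, and SEs derive from its statistic. The Q175 effect by sex came from a second fit, with 1 coefficient for each combination of genotype and sex. The scripts were tested on simulated data. Libraries of a genotype differed by 6.89 to 42.6 in mean chi-square per gene over 60 pairs, so none was counted as a repeat. Since the labels name no litters or pairs, p-values measure the spread between these libraries. Alternatives were RLE and upper-quartile factors, other filters, DESeq2 1.42.0, limma-voom (limma 3.58.1), no sex term, each sex alone, only the libraries compared and each library left out; 3 more, on choroid plexus and cortical markers, and all those of the related genes were chosen after the data were seen. Promoter windows come from RefSeq.

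The 9 genes, the related and marker lists and the tests were chosen with earlier results of these data known. All 9 genes are named for the comparisons of the Q175 allele and of the Tyrobp deletion, and some of them for the interaction and for sex. From each related list, the genes called in Q175 against WT or in the 12 libraries with the allele are named, at most the 4 of smallest p, or the 1 of smallest p where none was called, and the 5 genes of most similar profile. Some genes that meet this rule are not reported here. Marker genes named outside this rule were chosen after their values were seen.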

Additional observations from a re-analysis of the deposited data

Results flagged for a closer look

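Gjb6 in Q175_TyrobpKO replicate 3 was far from the other libraries of its genotype. It was at 17.215 CPM, where the next lowest library was at 23.8 CPM and the highest at 25.4 CPM, so the gap was 0.81 of the whole range, above Dixon's 95% critical value for 6 samples. It was 1 such library among 36 groups examined (9 genes in 4 genotypes). Chance gives a gap above that critical value in about 1 group in 20. Without this library the log2 fold change of Gjb6 in the 12 libraries with the Q175 allele against the 12 without it was -0.20 (adjusted p = 0.0525, edgeR), and the gene was no longer called.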

How the results depend on the processing

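Over the 9 genes and 8 contrasts, 2395 of 2547 alternative values kept their direction and side of the threshold, 48 lost a call, 10 gained one and 94 changed sign; none of the 94 belonged to 1 of the 12 called values. No paired analysis was possible because the replicate numbers only name libraries and the labels pair none. Each sex alone had 3 libraries a group. In males 759 genes were called in Q175 against WT, 65 in TyrobpKO against WT, 11 in Q175_TyrobpKO against Q175, 104 in Q175_TyrobpKO against TyrobpKO (1 of the 9 genes) and 1242 in all 12 libraries with the allele (2 of the 9). In females the counts were 187 (0 of the 9), 8, 11, 290 (1 of the 9) and 1195 (2 of the 9). DESeq2 called 52 genes in Q175_TyrobpKO against Q175 and 2 for the interaction. Without the libraries of high choroid plexus markers 1186 genes were called in Q175 against WT, 14 in Q175_TyrobpKO against Q175 and 493 in Q175_TyrobpKO against TyrobpKO, and 3 of the 9 in the 12 with the allele. Of the 49 related genes, in Q175 against WT, Q175_TyrobpKO against TyrobpKO and the 12 libraries with the allele, 1, 0 and 7 were called in males and 0, 0 and 3 in females, beside 7, 7 and 17; in the second comparison 12 were called with only the libraries compared, 2 without those of high choroid plexus markers and 11 with the cortical covariate, and by library left out 5 to 8, 4 to 9 and 14 to 17. The cause of these differences was not tested.

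Leaving out each library in turn gave 3 of the 9 genes in Q175 against WT each time, 2 to 4 in Q175_TyrobpKO against TyrobpKO and 4 to 6 in the 12 with the allele, and for all genes 1416 to 1986, 809 to 1218 and 3174 to 3547; 0 to 2 genes were called for the interaction, 1 or more without WT replicate 5, TyrobpKO replicate 6 or Q175_TyrobpKO replicate 1. Values near 0 that changed sign were, by library left out, Sox9 (-0.083 to 0.045) in Q175 against WT; Aqp4 (-0.054 to 0.035), Sox9 (-0.070 to 0.018) and Slc1a3 (-0.016 to 0.054) in TyrobpKO against WT; Gjb6 (-0.051 to 0.062) and Gja1 (-0.054 to 0.012) in Q175_TyrobpKO against Q175; Glul (-0.028 to 0.056) and Slc1a2 (-0.036 to 0.045) for the interaction; Slc1a3 (-0.019 to 0.022), Gjb6 (-0.018 to 0.061) and Aldh1l1 (-0.0089 to 0.038) in females against males; Sox9 (-0.052 to 0.085) for the Q175 effect by sex; and r of Slc1a2 with Glul (-0.0337 to 0.148).

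By other settings, Sox9 in Q175 against WT turned to 0.0019 with upper-quartile factors, 0.0032 with the filter of 10 reads in 6 libraries, 0.00052 without the sex term and 0.054 in males, and Aqp4 to 0.087 in females. In TyrobpKO against WT, Slc1a3 turned to -0.00055 in males, Aqp4 to 0.12, Gjb6 to -0.032 and Sox9 to 0.082 in females, and Sox9 to 0.027 with the cortical covariate. In Q175_TyrobpKO against Q175, Aldh1l1 turned to -0.010 in males and -0.0086 without the libraries of high choroid plexus markers, Slc1a2 to -0.025, Gja1 to 0.032, Gjb6 to 0.024 and Sox9 to 0.088 in females, and Gja1 to 0.0015 with the covariate. For the interaction, Slc1a2 turned to -0.047, Glul to -0.033, Gjb6 to 0.056 and Sox9 to 0.0064 in females, Glul to -0.033 without the libraries of high choroid plexus markers and Sox9 to 0.056 without those of low cortical markers. In females against males, Slc1a3 turned to -0.0022 with RLE factors, -0.00081 with the filter of 10 reads, -0.0021 in DESeq2 and -0.011 without the libraries of high choroid plexus markers, where Gjb6 turned to -0.028, and without those of low cortical markers Gjb6 turned to -0.00087 and Sox9 to 0.0058. The lowest count of any of the 9 genes in a library was 459 reads; what depth limits was not tested.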
